A study of Rattus norvegicus with 12 samples.

Results

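The genes described here are 4 flavin-containing monooxygenases (*Fmo1*, *Fmo2*, *Fmo4* and *Fmo5*), the sulfotransferase *Sult1a1*, the N-acetyltransferase 8 family gene *Cml3* and the glycosyltransferase *Galnt15*. They were selected by name from the count table, all 7 were found among its 37209 genes, and all 7 passed the filter on low counts. The names were picked after the difference between alcohol-exposed and air-exposed rats had been seen, and that difference is therefore given as a description. Where these genes are counted among those at a false discovery rate (FDR) of 5%, the count restates how they were picked and is not a test of them. The set had been put together as detoxification genes raised by alcohol vapor. The values go against this description at several points, because *Fmo1* was lower in the exposed rats, *Fmo4* differed little, and *Galnt15* is not a detoxification enzyme.

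RNA came from punches of the central nucleus of the amygdala (CeA) of male, wild type Sprague Dawley rats aged 14 to 16 weeks. The 6 rats of the CIE group (chronic intermittent ethanol, rats 1 to 6) had breathed ethanol vapor daily for several weeks and were killed at the end of the last exposure, and the 6 rats of the Control group (rats 7 to 12) had breathed air throughout and were killed after their last air exposure. One library was made per rat. Total counts lay between 61978486 and 78441691 in the CIE group and between 39082548 and 95647601 in the Control group. Rats were group housed, and the cage of each rat was not used here, so differences between cages cannot be told apart from those between groups. Of 11 central amygdala neuron markers found in the table, 0 differed at 5% FDR, and their summed level ranged from 837 to 2380 counts-per-million (CPM) in the CIE group and from 901 to 2800 CPM in the Control group. Striatal markers summed to between 595 and 4080 CPM in the CIE group and between 325 and 4620 CPM in the Control group. Cortical glutamatergic markers, 8 of 8 with a higher mean in the CIE group and 0 at 5% FDR, summed to between 92.2 and 513 CPM (median 247) in CIE rats and between 91.4 and 232 CPM (median 110) in Control rats. Control rat 10 had the highest central amygdala, striatal and cortical sums of its group, and CIE rat 2 the highest central amygdala and striatal sums of the CIE group. The share of neighbouring tissue in each punch was not tested.

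Flavin-containing monooxygenases sit in the endoplasmic reticulum and use NADPH and oxygen to oxidize the nitrogen or sulfur atoms of drugs, dietary amines and other small molecules, a first step (phase I) of detoxification. Cytosolic sulfotransferases act in the second step (phase II). They move a sulfonate group from the donor PAPS onto phenols, catechols and steroids, and they also form ethyl sulfate, a minor product of ethanol. NAT8, the best known enzyme of the N-acetyltransferase 8 family, acetylates cysteine conjugates on the way to mercapturic acids. *Galnt15* belongs to the polypeptide GalNAc transferases, which attach the first sugar of mucin-type O-glycans to serine and threonine in the Golgi.

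In the annotation used for names (RefSeq, GRCr8) *Fmo4*, *Fmo1* and *Fmo2* lie side by side in this order on chromosome 13, with *Fmo6* in the same cluster, whereas *Fmo5* is on chromosome 2, *Sult1a1* on chromosome 1 and *Galnt15* on chromosome 16. *Fmo5* overlaps the gene *Chd1l*, and *Fmo4* overlaps a long non-coding RNA that the count table does not list by that name. The strand setting of the counting was not given in the sources used here, so reads from overlapping genes cannot be told apart. *Cml3* is 1 of a family of close copies that can share reads, and its count is uncertain to that extent.

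RefSeq promoter windows were matched for 5 of the 7 genes. The bases upstream of the annotated gene are shown for the 2 neighbouring genes with opposite directions, *Fmo1* and *Fmo2*, and for *Sult1a1* and *Galnt15*, whose levels were higher in all exposed rats. Each reads 5′ to 3′ on the strand of the gene, and capitals mark AGAACA, the hexamer that 1 unit of the glucocorticoid receptor prefers, or its reverse complement TGTTCT. In GRCr8, which is not the build of the counts, they are chr13:77747667-77747916 (minus strand) for *Fmo1*, chr13:77777598-77777784 (minus strand) for *Fmo2*, chr1:190706113-190706362 (minus strand) for *Sult1a1* and chr16:7233274-7233523 (plus strand) for *Galnt15*.
Fmo1: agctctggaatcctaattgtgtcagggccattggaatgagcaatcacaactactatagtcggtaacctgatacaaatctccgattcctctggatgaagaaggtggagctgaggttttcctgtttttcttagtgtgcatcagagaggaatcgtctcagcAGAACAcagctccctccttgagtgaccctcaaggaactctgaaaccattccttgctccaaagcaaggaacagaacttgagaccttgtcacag
Fmo2: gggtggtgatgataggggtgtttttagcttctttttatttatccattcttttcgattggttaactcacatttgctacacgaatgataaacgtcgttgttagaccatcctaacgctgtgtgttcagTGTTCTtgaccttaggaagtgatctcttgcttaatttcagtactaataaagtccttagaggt
Sult1a1: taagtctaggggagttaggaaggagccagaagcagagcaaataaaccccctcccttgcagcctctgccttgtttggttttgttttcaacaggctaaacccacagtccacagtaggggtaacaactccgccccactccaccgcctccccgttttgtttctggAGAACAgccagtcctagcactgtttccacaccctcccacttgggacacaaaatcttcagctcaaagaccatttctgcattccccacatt
Galnt15: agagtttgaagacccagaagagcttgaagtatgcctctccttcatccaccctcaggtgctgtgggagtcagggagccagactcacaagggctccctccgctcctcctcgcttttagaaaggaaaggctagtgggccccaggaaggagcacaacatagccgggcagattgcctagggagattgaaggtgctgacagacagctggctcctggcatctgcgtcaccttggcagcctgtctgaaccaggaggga

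Each full window held 300 bases, and both strands were searched. The hexamer was found in the windows of *Fmo1* (position -92 from the transcript start), *Fmo2* (-125) and *Sult1a1* (-89), and not in those of *Fmo5* and *Galnt15*. It occurred in 20.1% of 27457 promoters. The palindromic glucocorticoid response element, which joins a pair of such hexamers and can overlap AGAACA, was held by 0.422% of promoters and by 0 of the 5 windows, and the antioxidant response core TGACNNNGC (12.2% of promoters) was likewise in 0 of the 5. The xenobiotic response core GCGTG (31.1%) was in that of *Fmo5* alone (-146). The hexamer was thus present upstream of *Fmo1*, which was lower in the CIE group, as well as upstream of *Fmo2* and *Sult1a1*, which were higher. Such matches describe letters and do not show binding.

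Counts were normalized with edgeR's TMM method and are given as CPM. A level in CPM depends on transcript length, which was not used, so levels are compared between rats for 1 gene and not between genes. The log2 fold changes and their standard errors (SE) are from edgeR's quasi-likelihood fit of all 20944 tested genes, CIE minus Control. Of the 7 genes, 6 had a positive and 1 a negative log2 fold change. In 4 of them (*Fmo2*, *Sult1a1*, *Cml3* and *Galnt15*) every CIE rat was above every Control rat, a pattern that 0.339% of all tested genes showed. The same 4 were among the genes higher in CIE at 5% FDR, which made up 0.105% of those tested, and DESeq2 called the same number against 0.464% of its genes. None of the 7 lay entirely below the Control rats (0.554% of all genes did) or was lower at 5% FDR (0.258%). A log2 fold change above 1 was found for 3 of the 7 and for 0.788% of all genes. These counts come from the comparison on which the genes were picked.

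*Fmo2*, the form best known from lung, had the largest log2 fold change of the 7. In the CIE group its level was 0.835 CPM in the lowest rat, 2.23 CPM at the median and 4.92 CPM in the highest, and in the Control group it was 0.134, 0.440 and 0.672 CPM. The groups did not overlap, with CIE rat 3 closest to the Control rats and CIE rat 6 far above the other rats. The CIE mean was 2.56 ± 1.38 CPM and the Control mean 0.420 ± 0.194 CPM (SD, n = 6 each), a ratio of 6.10 and a log2 fold change of 2.64 (SE 0.42). These values rest on few reads, 54 to 399 counts in a CIE rat and 10 to 41 in a Control rat. All CIE rats but only 5 Control rats reached the CPM equal to 10 counts in a library of median depth, which is the level the filter asks for in 6 rats. Its log2 fold change lay between 2.34 and 2.82 whichever rat was left out.

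*Fmo2* was also the most variable of the 7 within groups. Its highest CIE rat was 5.90 times its lowest, and its highest Control rat 5.02 times its lowest. The biological coefficient of variation in the edgeR fit was 47.1%. Over the 5571 tested genes with a mean level from 1 to 10 CPM the median was 22%, with quartiles at 17.7% and 28.6%.

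*Fmo1*, a main form of rodent liver and kidney, ran the other way. It was at 2.30 CPM in the lowest, 3.16 CPM at the median and 3.57 CPM in the highest CIE rat, and at 3.25, 4.32 and 5.11 CPM in the Control group. The ranges overlapped through Control rat 10, the lowest of its group, and 3 CIE rats lay below all Control rats. With means of 3.08 ± 0.542 CPM and 4.31 ± 0.711 CPM (SD, n = 6 each) the log2 fold change was -0.48 (SE 0.15).

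*Fmo5*, which differs from the other forms in that it inserts oxygen into ketones and similar compounds, was at 1.53, 2.10 and 2.87 CPM in the lowest, median and highest CIE rat and at 1.03, 1.45 and 2.04 CPM in the Control rats. The groups overlapped, and 3 CIE rats exceeded every Control rat. Its means were 2.16 ± 0.461 and 1.49 ± 0.327 CPM (SD, n = 6 each), a log2 fold change of 0.52 (SE 0.19). The overlapping gene *Chd1l*, a chromatin remodeler, averaged 11.2 ± 0.888 CPM in CIE rats and 10.3 ± 1.04 CPM in Control rats (SD, n = 6 each), a difference of 0.13 on the log2 scale (SE 0.09, edgeR FDR 0.768).

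*Fmo4*, a form of low abundance in most tissues, was nearly level. It ranged from 2.25 to 3.48 CPM (median 2.76) in the CIE group and from 2.18 to 3.0 CPM (median 2.64) in the Control group. The groups overlapped over most of their range, the log2 fold change of 0.13 was smaller than its SE of 0.14, and the means were 2.88 ± 0.474 and 2.62 ± 0.268 CPM (SD, n = 6 each).

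*Sult1a1*, the phenol sulfotransferase, had the lowest biological coefficient of variation of the 7 in the edgeR fit (13.4%). Its level was 7.0 CPM in the lowest, 8.18 CPM at the median and 8.62 CPM in the highest CIE rat, and 4.03, 4.95 and 5.56 CPM in the Control rats. A clear gap separated the lowest CIE rat from the highest Control rat. The means of 7.97 ± 0.604 and 4.88 ± 0.538 CPM (SD, n = 6 each) gave a ratio of 1.63 and a log2 fold change of 0.71 (SE 0.10), on 156 to 676 counts per rat. Its coefficient of variation was 7.58% within the CIE group and 11% within the Control group, where that of *Fmo4* was slightly lower (10.2%), against 54.1% and 46.2% for *Fmo2*.

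*Cml3* had the highest counts, 1425 to 3620 per CIE rat and 342 to 1047 per Control rat. In the CIE group it was at 21.9, 34.2 and 44.6 CPM in the lowest, median and highest rat, and in the Control group at 8.62, 9.21 and 17.6 CPM. Control rat 10, which also had the highest striatal marker sum of its group, was the highest Control rat for *Cml3*. CIE rat 1 was the lowest CIE rat, and the groups did not overlap. The means were 32.7 ± 8.50 and 11.2 ± 3.67 CPM (SD, n = 6 each), a ratio of 2.92 and a log2 fold change of 1.55 (SE 0.21).

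*Galnt15* was at 3.80, 4.34 and 5.69 CPM in the lowest, median and highest CIE rat and at 0.678, 1.43 and 2.19 CPM in the Control rats. The groups did not overlap. Means of 4.56 ± 0.748 and 1.39 ± 0.565 CPM (SD, n = 6 each) gave a ratio of 3.27 and a log2 fold change of 1.71 (SE 0.25). The SD was larger in the CIE group, but relative to the mean the spread was wider in the Control group, where the highest rat was 3.24 times the lowest, than in the CIE group, where it was 1.5 times.

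**Figure D1:**
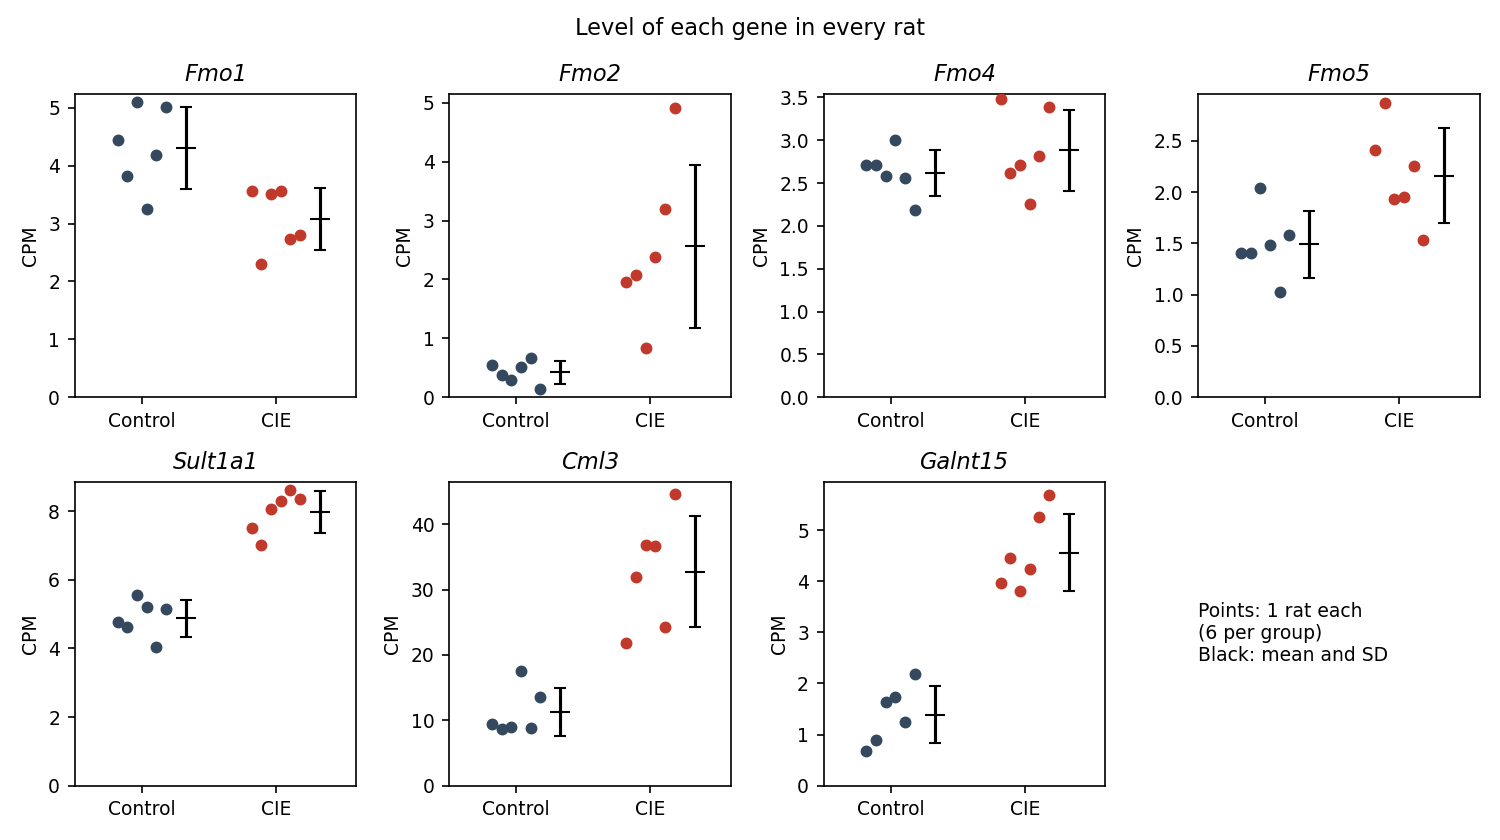
Level in CPM (TMM-normalized, linear axes from 0) of each of the 7 genes in every rat, with 6 Control rats (dark) and 6 CIE rats (red) per panel and the mean with its SD in black. In the panels of *Fmo2*, *Sult1a1*, *Cml3* and *Galnt15* all CIE rats lie above all Control rats, in that of *Fmo1* the CIE mean of 3.08 CPM lies below the Control mean of 4.31 CPM, and in that of *Fmo4* the groups overlap over most of their range.

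The other genes of the same families and their chromosomal neighbours were tested in the fit of all genes, where 0.363% of 20944 genes passed 5% FDR. Inside the *Fmo* cluster *Fmo6* was near the detection limit, with a difference of 0.35 on the log2 scale (SE 0.42, FDR 0.876). The tested genes that flank the cluster did not pass either, *Prrc2c* differing by 0.09 (SE 0.07, FDR 0.801) and *Prrx1*, a homeobox gene, by 0.03 (SE 0.09, FDR 0.961). *Fmo9* and *Fmo13* did not exceed 4 counts in any rat and were not tested. Whether the difference of *Fmo2* was larger than those of its neighbours was not tested.

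Among the other sulfotransferases 0 of 7 tested genes passed 5% FDR, with 0 at an unadjusted p below 0.05 in edgeR (8.31% of all genes were) and 0 calls in DESeq2, and their median log2 fold change was -0.06, beside 0.00 for all genes tested. *Sult4a1*, a neuronal form without known substrate, averaged 326 ± 27.4 CPM in CIE rats and 357 ± 24.6 CPM in Control rats (SD, n = 6 each, log2 fold change -0.13, SE 0.07, FDR 0.660). *Sult2b1*, which sulfates cholesterol, differed by 0.28 on the log2 scale (SE 0.16, FDR 0.683) and *Sult2a6* by -0.96 (SE 0.62, FDR 0.741). Of 13 genes that supply sulfate, make PAPS or remove sulfate groups, 0 passed in edgeR or DESeq2 and 2 were lower at an unadjusted p below 0.05. These were *Slc35b2*, the Golgi PAPS carrier (-0.19, SE 0.08, FDR 0.544), and *Papss1*, a PAPS synthase (-0.14, SE 0.06, FDR 0.587).

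Among the other N-acetyltransferase 8 genes 0 of 4 were at 5% FDR in either tool and 0 at an unadjusted p below 0.05 in edgeR, with a median log2 fold change of 0.02. *Cml5* averaged 8.87 ± 2.49 CPM in CIE rats and 6.91 ± 1.91 CPM in Control rats (SD, n = 6 each, log2 fold change 0.36, SE 0.20, FDR 0.695). *Nat8l*, the enzyme that makes N-acetylaspartate in neurons, differed by -0.03 on the log2 scale (SE 0.06, FDR 0.943), and *Nat8b* by 0.04 (SE 0.20, FDR 0.973). *Nat8* and *Cml2* were listed at 0 in every rat.

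Of 16 other GalNAc transferases, 0 passed 5% FDR in edgeR or DESeq2, and 1 was higher at an unadjusted p below 0.05. This was *Galnt14*, which averaged 16.6 ± 4.96 CPM in CIE rats and 12 ± 2.67 CPM in Control rats (SD, n = 6 each, log2 fold change 0.46, SE 0.19, FDR 0.533). *Galnt1* differed by -0.11 on the log2 scale (SE 0.06, FDR 0.709) and *Wbscr17* by 0.22 (SE 0.13, FDR 0.709). The 12 tested genes that extend O-glycans had a median log2 fold change of -0.01, with 0 at 5% FDR in both tools and 1 higher and 1 lower at an unadjusted p below 0.05 in edgeR. They were *St6galnac2* (0.64, SE 0.29, FDR 0.579) and the chaperone *C1galt1c1* (-0.18, SE 0.08, FDR 0.596).

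**Figure D2:**
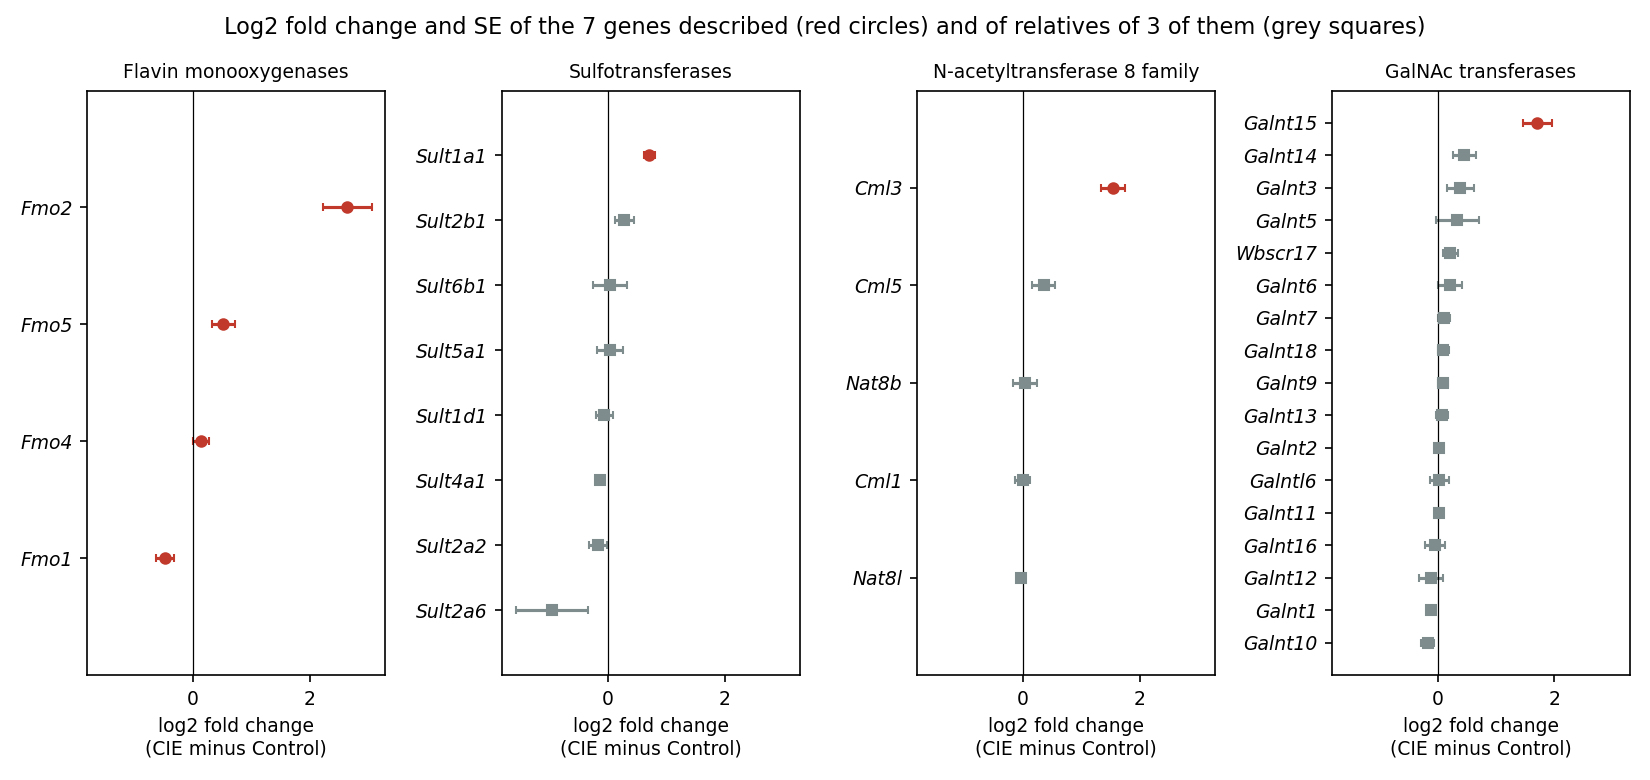
Log2 fold change (CIE minus Control) of the 7 genes described (red circles) and of the other tested sulfotransferases, N-acetyltransferase 8 genes and GalNAc transferases (grey squares), with horizontal bars for the SE. None of the grey squares passed 5% FDR, and *Galnt15* (1.71), *Cml3* (1.55) and *Sult1a1* (0.71) stand to the right of the relatives in their panels.

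The wider detoxification system was described with the same fit. The 12 lists of families, cofactors, enzymes, transporters and receptors held 201 tested genes besides the 7, and 1 of them (0.498%) passed 5% FDR, a share near the 0.363% of all genes. It was *Gamt*, which methylates guanidinoacetate to creatine. *Gamt* fell to 32.8 ± 4.55 CPM in CIE rats from 46.0 ± 4.65 CPM in Control rats (SD, n = 6 each, log2 fold change -0.49, SE 0.10, FDR 0.0475), and it no longer passed with 10 of the 12 rats left out in turn. DESeq2 gave an FDR for 218 genes of these lists and called 8 of them, a higher share than the 1.12% of all its genes. A share near that of all genes was thus found in edgeR and not in DESeq2.

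Among 53 other phase I enzymes the median log2 fold change was 0.00, and 4 genes were higher and 3 lower at an unadjusted p below 0.05. *Xdh*, xanthine dehydrogenase, averaged 9.01 ± 1.22 CPM in CIE rats and 5.83 ± 1.44 CPM in Control rats (SD, n = 6 each, log2 fold change 0.62, SE 0.16, FDR 0.169). *Cyp2j10*, a cytochrome P450, was at 5.89 ± 2.71 and 12.3 ± 4.05 CPM (-1.06, SE 0.29, FDR 0.211). Both passed 5% FDR in DESeq2 and not in edgeR. The list of other phase II enzymes held 15 tested genes, among them *Gamt*, although its step is one of creatine synthesis. After *Gamt*, *Mettl7a* had the smallest p of this list (0.25, SE 0.13, FDR 0.656).

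Among 21 glutathione transferases, 3 were higher and 0 lower at an unadjusted p below 0.05 in edgeR, and 0 passed 5% FDR. *Gsta3* was at 0.374 to 0.830 CPM in the CIE rats and 0.115 to 0.346 CPM in the Control rats, without overlap. Such a gap, with CIE above, was seen in 0.339% of all tested genes. The *Gsta3* values rest on few reads, 26 to 54 counts in a CIE rat and 8 to 26 in a Control rat. Its log2 fold change was 1.17 (SE 0.31, FDR 0.187 in edgeR and 0.0431 in DESeq2). *Gstt1* differed by 0.42 on the log2 scale (SE 0.16, FDR 0.475). Of 18 genes of glutathione synthesis and the mercapturate pathway, 0 passed in either tool and 2 were lower at an unadjusted p below 0.05, the aminopeptidase *Anpep* (-0.46, SE 0.15, FDR 0.359) and *Chac1*, which degrades glutathione (-0.24, SE 0.09, FDR 0.476).

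Of 21 drug transporters, 0 passed 5% FDR in edgeR, with 3 higher and 2 lower at an unadjusted p below 0.05. DESeq2 called 3 of 22, of which *Abcg2* was higher and *Slc22a8* and *Slco1c1* were lower. *Abcg2* averaged 13.4 ± 4.14 CPM in CIE rats and 7.62 ± 1.24 CPM in Control rats (SD, n = 6 each). Its log2 fold change was 0.82 (SE 0.21, FDR 0.169 in edgeR and 0.0144 in DESeq2). *Slc22a8*, an organic anion transporter, averaged 9.73 ± 1.22 CPM in CIE rats and 13.5 ± 1.76 CPM in Control rats (SD, n = 6 each, log2 fold change -0.47, SE 0.10, FDR 0.0914), and *Slco1c1*, a thyroid hormone transporter, differed by -0.39 on the log2 scale (SE 0.10, FDR 0.164). Of 19 xenobiotic-sensing factors and their partners, 0 passed in edgeR and 1 in DESeq2, and 1 was higher at an unadjusted p below 0.05. This was the fatty acid sensor *Ppara*, at 12.5 ± 1.95 against 9.27 ± 0.478 CPM (0.43, SE 0.10, FDR 0.118). *Nfe2l2*, which drives antioxidant genes, differed by 0.24 on the log2 scale (SE 0.12, FDR 0.627).

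Genes known to be induced by glucocorticoids were the last list. Of its 25 tested genes 6 passed 5% FDR (24.0%, against 0.363% of all genes), 5 higher and 1 lower, and the median log2 fold change was 0.56. The list was written with earlier results of these rats known and is not independent evidence. *Hif3a* averaged 6.66 ± 1.53 CPM in CIE rats and 1.11 ± 0.492 CPM in Control rats (SD, n = 6 each, log2 fold change 2.57, SE 0.30, FDR 0.00331). *Zbtb16* (1.45, SE 0.20, FDR 0.0102), *Tsc22d3* (0.57, SE 0.09, FDR 0.0159), *Sgk1* (1.22, SE 0.22, FDR 0.0273) and *Gpd1* (1.23, SE 0.24, FDR 0.0469) were also higher, and the cell cycle inhibitor *Cdkn1a* was lower (-0.71, SE 0.11, FDR 0.0116). Leaving out 1 rat ended the call of *Sgk1* in 9 of 12 fits, that of *Gpd1* in 9 and that of *Tsc22d3* in 1.

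**Figure D3:**
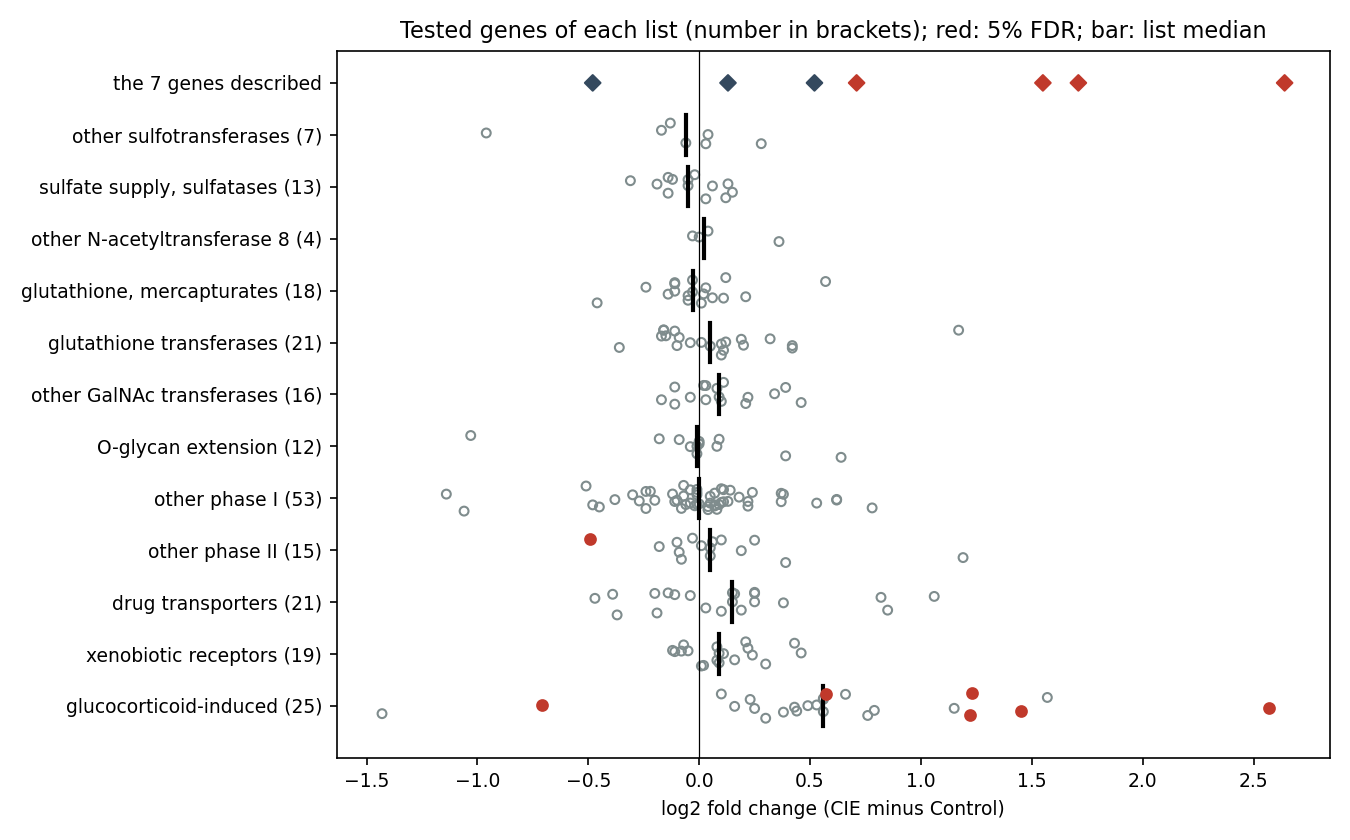
Log2 fold change (CIE minus Control) of the 7 genes described (diamonds) and of the tested genes of 12 lists, 1 list per row, with the number of genes in brackets, a black bar at the list median and red for genes at 5% FDR. The medians of the lists above the last lie between -0.06 and 0.15, and that of the glucocorticoid-induced list lies at 0.56.

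Whether the 7 genes varied together from rat to rat was described with the deviations of each rat from its group mean, on log2 CPM, which do not use the difference between groups. Over the 21 pairs Pearson's r had a median of -0.06, and 8 pairs were above 0. *Sult1a1*, *Cml3* and *Galnt15* were positively related to each other (*Cml3* and *Galnt15* 0.48, *Sult1a1* and *Galnt15* 0.47, *Sult1a1* and *Cml3* 0.35, n = 12 rats). *Fmo2* was not part of this group, with values of -0.19 for *Sult1a1*, -0.06 for *Cml3* and -0.15 for *Galnt15*. The last of these joined r = 0.89 within the CIE rats and r = -0.61 within the Control rats (n = 6 each).

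The neighbouring genes *Fmo1* and *Fmo2* were opposed within groups as well, with r = -0.51 over 12 rats, -0.44 within the CIE rats and -0.58 within the Control rats, and between -0.63 and -0.42 when a rat was left out. *Fmo2* and *Fmo4* had r = 0.46, and *Fmo2* and *Fmo5* r = -0.45. All of these points share the libraries and their depth, and genes at a few CPM carry counting noise.

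Marker genes of other cell types moved with some of these values. In bulk tissue fewer cells of a type and less RNA per cell cannot be told apart. Summed over 12 markers of myelinating oligodendrocytes, the level ranged from 5620 to 13700 CPM in the CIE rats and from 8670 to 16200 CPM in the Control rats, and 12 of 12 had a lower mean in the CIE group. Within groups this sum was related to *Fmo2* (r = 0.76), to *Fmo4* (0.76) and to *Fmo1* (-0.54), and not to *Sult1a1* (-0.05), *Cml3* (-0.02) or *Galnt15* (0.00). CIE rat 6 had the highest *Fmo2* level of the CIE rats (4.92 CPM). It also had their highest sum of these markers and of the astrocyte, endothelial, mural, fibroblast and microglia markers. In the Control group the highest rats differed, Control rat 11 for *Fmo2* and Control rat 8 for the oligodendrocyte sum. Between groups, *Fmo2* was higher and the oligodendrocyte sum lower in CIE rats. The part of oligodendrocyte content in the values of *Fmo1*, *Fmo2* and *Fmo4* was not tested.

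The fibroblast markers, 12 of 12 with a lower mean in the CIE group, summed to between 138 and 221 CPM in CIE rats and between 230 and 289 CPM in Control rats. In edgeR 3 of 12 were lower at 5% FDR, against 0.258% of all tested genes. *Pdgfra* weighed most in the fibroblast sum, averaging 83.9 CPM in CIE rats and 94.2 CPM in Control rats. This sum was related to *Fmo2* with r = 0.47 and to *Fmo1* with r = -0.24. Because it leans on 1 gene, these values need not be those of fibroblasts. Endothelial markers, 11 of 11 with a lower mean in the CIE group, ranged from 208 to 273 CPM and from 243 to 310 CPM (r = 0.61 with *Fmo2*, 0.49 with *Cml3*). Between groups, *Fmo2*, *Cml3* and *Galnt15* were higher and the fibroblast and endothelial markers lower in CIE rats. Choroid plexus and ependymal markers were low, at 10.4 to 21.1 CPM in CIE and 12.9 to 32.3 CPM in Control rats, with the defining markers *Ttr* and *Kcnj13* listed at 0 in every rat. Widely used genes such as *Abcc5* and the mural marker *Myh11* are listed at 0 as well, so these zeros do not show that choroid plexus RNA was absent. *Rarres2* weighed most in the choroid plexus and ependymal sum, averaging 5.97 CPM in CIE rats and 7.23 CPM in Control rats. *Folr1* averaged 0.107 and 0.274 CPM and *Otx2* 0.0776 and 0.136 CPM. Values of r with this sum thus need not be those of choroid plexus. The sum was opposed to *Fmo2* (r = -0.82) and positively related to *Fmo1* (0.58). CIE rat 3 and Control rat 12 had the highest such sum and the lowest *Fmo2* level of their groups (0.835 and 0.134 CPM). No r with a marker sum was recomputed with a rat left out, so its dependence on single rats was not tested. Astrocyte markers overlapped between the groups, at 2860 to 3550 and 2840 to 3270 CPM, 6 of 12 having a higher mean in each, and were related to *Galnt15* with r = 0.56 and to *Cml3* with r = 0.42. General neuronal markers, 6 of 12 with a higher mean in the CIE group, had r = -0.60 with *Cml3* and -0.57 with *Fmo4*. Mural markers had r = 0.49 with *Fmo2*, and central amygdala markers 0.52 with *Fmo5*. Erythroid markers, 8 of 8 with a lower mean in the CIE group, did not overlap (34.7 to 106 and 145 to 251 CPM) and had r = 0.62 with *Sult1a1* and 0.57 with *Cml3* within groups. Fibroblast markers were not alone in being lower at 5% FDR in edgeR. Of the tested markers, 3 of 8 erythroid, 2 of 10 endothelial and 1 of 9 mural ones were lower as well. None of 12 oligodendrocyte markers passed in edgeR, and DESeq2 called 4 of 12. The part of these cell types in the 7 genes was not tested.

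**Figure D4:**
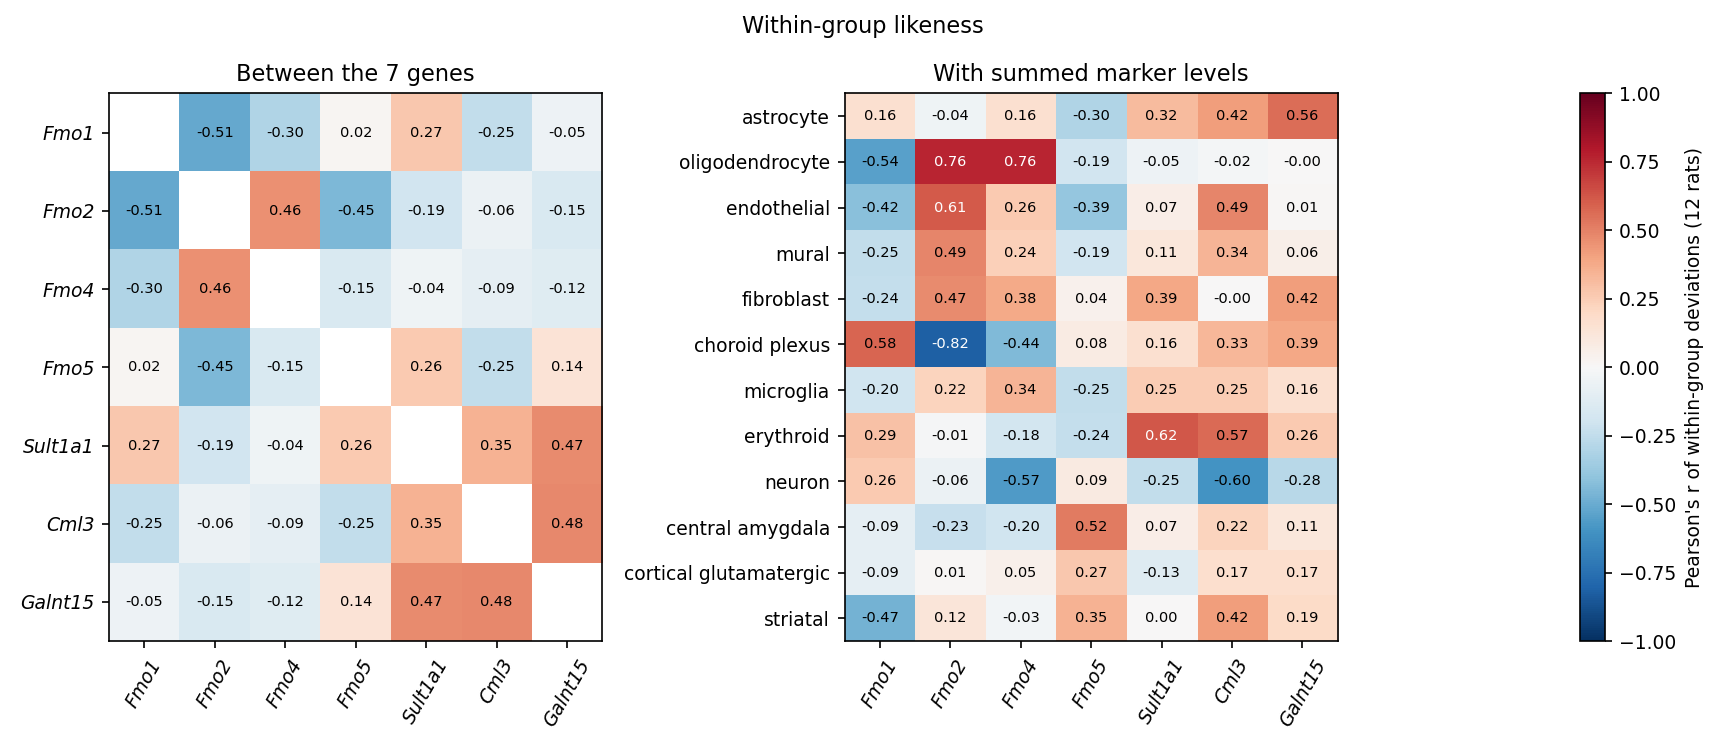
Pearson's r of deviations from the group mean over 12 rats, on a scale from -1 (blue) to 1 (red), between the 7 genes (left) and between each gene and the log2 summed CPM of 12 marker lists (right). *Sult1a1*, *Cml3* and *Galnt15* form a positive block of 0.35 to 0.48, and *Fmo2* and *Fmo4* both have 0.76 with oligodendrocyte markers. With the choroid plexus and ependymal sum, in which *Rarres2* weighs most, *Fmo2* has -0.82 and *Fmo4* -0.44.

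The genes most like each of the 7 within groups were looked for among those with a mean of at least 1 CPM. With 12 rats and 16890 genes high values of r arise readily, and the values are descriptions. For *Fmo2* they were the sodium channel *Scn1a* (r = 0.93), the neurofilament *Nefh* (0.93) and *C5ar2* (0.92), for *Fmo1* *Fam107b* (0.94), *Lvrn* (0.94) and *Nrg4* (0.93), and for *Fmo4* *Snx33* (0.93), *E4f1* (0.90) and *Tgds* (0.88). *Fmo5* was nearest to *Ccdc18* (0.87), *Mpp2* (0.86) and LOC102555555 (0.84). For *Sult1a1* they were LOC102551211 (0.84), the endothelial gene *Nostrin* (0.83) and LOC100911807 (0.82), for *Cml3* *Csad*, an enzyme of taurine synthesis (0.90), *Nhej1* (0.90) and *Rchy1* (0.89), and for *Galnt15* they included *Rps10* (0.86) and *Dtx3l* (0.85). None of the genes named here for their likeness passed 5% FDR between the groups in edgeR. *Nostrin* had the smallest unadjusted p of them (log2 fold change 0.50, SE 0.16, FDR 0.337).

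Members of the glucocorticoid-induced list were set beside the 7 genes in the same way. All 25 had an r above 0 with *Galnt15* (median 0.22, *Plin4* 0.75), and 21 of 25 did with *Sult1a1* (median 0.15, *Hif3a* 0.69) and with *Cml3* (median 0.18, *Mt2A* 0.54). The number was 18 of 25 for *Fmo5* (median 0.17), 16 of 25 for *Fmo2* (median 0.15) and 13 of 25 for *Fmo4* (median 0.00). For *Fmo1*, 5 of 25 were above 0 (median -0.31, *Sgk1* -0.78). The gene named beside each median had the r largest in size of the 25, or shared that place. The median r over 16890 genes was 0.00 for *Galnt15*, -0.02 for *Sult1a1*, 0.01 for *Cml3* and -0.03 for *Fmo1*. Without regard to sign the median over these genes was 0.18, 0.15, 0.24 and 0.26 in the same order. The list medians are thus close to the size of a usual r, but the median without sign is not their like value. Their like value is the median with sign, which was near 0, so about as many genes lay above 0 as below. The exact share of all genes with an r above 0 was not computed. Whether the list differs from other genes was not tested. Genes of the list vary together, so these counts are not counts of independent observations.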

How the data were processed

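Poly-A RNA-Seq of CeA punches was made from 12 rats, 1 library each. BWA alignment used the genome Rnor_6.0. The authors deposited raw HTSeq counts per gene. The gene annotation and the strand and overlap settings were not given in the sources used here. No count table column was left unmapped, and no 2 rats of a group were alike within counting noise.

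Counts were fitted with edgeR 4.0.16 in R 4.3.3 (TMM, filterByExpr, quasi-likelihood F test, two-sided, no covariates, 20944 genes, Benjamini-Hochberg FDR of 5%), and figures were drawn in Python 3.11.15. Each SE was taken as the size of the log2 fold change over the root of its F value. The fit was tested on simulated data. Log2 CPM used a prior count of 2. Members and lists were chosen with earlier results of these data known. The other genes named are the genes at 5% FDR and those with the smallest p of each list (3 in the 4 families, 2 elsewhere), the 3 genes most like each member, and genes in or beside the *Fmo* cluster. *Chd1l*, *Abcg2* and the genes listed at 0 were named after their values were seen. Of the 7 symbols, 6 matched RefSeq (GRCr8), as did 20207 of 37209 in the table. Alternatives were DESeq2 1.42.0, edgeR with DESeq2's size factors or scaled by library size alone, an unfiltered table, a minimum of 10 counts for every rat, and leaving out each rat. Some genes that the naming rule selected are not reported here. Each p-value sets the difference between the groups against the spread between these rats, and differences between cages were not modelled.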

Additional observations from a re-analysis of the deposited data

How the results depend on the processing

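The log2 fold change of each of the 7 genes kept its sign in all 17 alternatives. Its shift was below 1 within-group SD in 119 of 119 values. Leaving out 1 of 6 rats can hardly move a group mean that far, so this count could hardly fail and is no evidence of stability. The count of these genes at 5% FDR, which restates how they were picked, was 4 in every alternative except the fit without Control rat 9, in which it was 3, because *Fmo2* had an FDR of 0.0517. DESeq2 called 266 genes at 5% FDR in place of 76, and 20 genes of the 13 lists in place of 7, and 41.4% of its calls were higher in CIE, against 28.9% in edgeR. With 1 rat left out, edgeR called between 34 (without Control rat 9) and 154 (without CIE rat 6) genes, and between 3 (without Control rat 9) and 9 genes of the lists (without CIE rat 3 or CIE rat 6). The naming rule selected 33 genes of the lists. Of their alternative values 518 kept their side of the threshold, 31 lost it (*Gamt*, *Gpd1*, *Sgk1*, *Tsc22d3*) and 8 gained it, 6 of them in DESeq2. *Gamt* also lost it with DESeq2 size factors and with library size only. The median r between the 7 genes was 0.01 with Spearman's rank correlation, -0.08 with library size only and between -0.14 and 0.06 with a rat left out. No paired analysis was possible because the rats of the groups share no numbers. At 10 to 41 counts per Control rat, depth limits the precision of *Fmo2*.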

Other observations

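Several detoxification genes were listed at 0 in every rat, among them the efflux transporters *Abcc1* and *Abcc5*, the arylamine acetyltransferase *Nat1* and 7 of the 8 *Ugt1a* genes listed, *Ugt1a9* being the exception with up to 20 counts per CIE rat. Genes such as *Abcc5* are used by most cells, and a listed 0 is given here only as the value in the table. Within groups, *Cml3* and *Sult1a1* were both related to the erythroid sum (r = 0.57 and 0.62). Between groups both genes were higher and the erythroid sum lower in CIE rats. The part of erythroid content in these values was not tested.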
